A study of Mus musculus with 2 samples.

Results

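The cells described here are colonic B cells with a high summed level of 6 transcripts: Gpr183, Tnfaip3, Icosl, Pmaip1, Rasgef1b and Irs2. They numbered 784 of 7834 eligible cells, out of 8156 cell barcodes in the count matrices. A cell was eligible when its barcode stood in the deposited log-normalized table, it had at least 1000 unique molecular identifiers (UMIs, each marking 1 captured transcript) and under 20% of them came from immunoglobulin or Jchain genes. The 6-gene UMIs were summed, divided by all UMIs of the cell, and the top 10% over both libraries together were taken. Measured values thus chose these cells, which form a range cut from a continuous score and not a cell type with a boundary of its own.

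The study sorted B cells by flow cytometry from the lamina propria, the connective tissue layer under the gut epithelium, of the colon of female C57BL/6J mice. Day 0 cells came from mice given no treatment. Day 14 cells came from mice that drank 2% DSS (dextran sulfate sodium, a polymer that injures the colon epithelium) for 7 days and then recovered for 7 days. Each day is 1 droplet library of transcript 3′ ends (10x Genomics, version 2 chemistry), and the treatment tag reads DSS for both, so the groups rest on the titles and protocols. The sources used here give neither the age of the mice nor how many were pooled per library. With 1 library per day there was no test, and a difference between days cannot be told apart from one between libraries. All intervals are 95% intervals that cover counting error only.

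Gpr183 encodes the receptor EBI2, which guides B cells along gradients of oxysterols, oxidized cholesterol derivatives, within lymphoid tissue. Tnfaip3 encodes A20, a ubiquitin-editing enzyme that NF-kB induces and that in turn restrains NF-kB signalling. Icosl is the ligand of the T cell costimulator ICOS, Pmaip1 encodes the pro-apoptotic BH3-only protein NOXA, Rasgef1b is an exchange factor for Ras-family GTPases, and Irs2 is an adaptor of the insulin receptor.

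Promoter sequences are shown for 2 genes of the chosen cells that act as brakes or modulators of NF-kB, because each holds a pair of matches to the kappa-B consensus, the site that NF-kB dimers bind. Capitals mark the matches, and the sequences are the 250 bases before the transcription start, 5′ to 3′, from the RefSeq promoter table of GRCm38.p6. The Tnfaip3 stretch lies on the minus strand at chr10:19015411-19015660, with matches starting 125 and 12 bases before the start. The Nfkbid stretch lies on the plus strand at chr7:30422156-30422405, with matches starting 226 and 181 bases before the start.
Tnfaip3: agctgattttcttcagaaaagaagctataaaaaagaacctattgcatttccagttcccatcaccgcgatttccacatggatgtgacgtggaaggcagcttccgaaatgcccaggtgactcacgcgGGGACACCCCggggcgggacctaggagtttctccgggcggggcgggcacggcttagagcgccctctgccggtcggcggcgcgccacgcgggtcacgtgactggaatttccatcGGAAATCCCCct
Nfkbid: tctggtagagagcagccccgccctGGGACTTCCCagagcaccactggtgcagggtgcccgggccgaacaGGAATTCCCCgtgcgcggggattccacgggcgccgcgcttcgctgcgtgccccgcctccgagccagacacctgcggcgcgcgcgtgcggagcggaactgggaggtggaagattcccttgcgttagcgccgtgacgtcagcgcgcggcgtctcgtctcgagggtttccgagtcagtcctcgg

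The kappa-B consensus, searched on both strands, was present in 4.51% of the 32851 promoters of 300 bases in that table. Of the 6 genes that chose the cells, 5 had an entry, with 6 promoters among them, and only Tnfaip3 had a match. It was in 1 of these promoters, and another promoter of Tnfaip3 had 0. Of the 16 genes with the highest interval bounds outside the 6, 13 were found and 3 had a match: Nfkbid in 1 of its 3 promoters, Fosb, and Nr4a1. The cAMP response element TGACGTCA, in 1.79% of all promoters, was present for Nfkbid and Plk2, and the FOXO element TGTTTAC, in 3.65%, for none of them. No base was shared by matches of different motifs. A match describes the sequence only.

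The chosen cells made up 361 of 3232 eligible cells at day 0, or 11.2% (exact binomial interval 10.1 to 12.3%). At day 14 they were 423 of 4602, or 9.19% (8.37 to 10.1%). The share over both days is fixed by the rule, so these 2 values say only how the same cells divide. Median depth was close to that of the remaining cells, at 2258 UMIs in chosen and 2284 in remaining cells at day 0, and 2237 and 2249 at day 14. Large cells were rarer among the chosen ones, with upper quartiles of 2538 against 2797 UMIs at day 0 and 2561 against 2894 at day 14. Cells over 2 times the library median were 1.94% against 4.49% at day 0 and 1.18% against 6.99% at day 14. The part of this in the summed cell cycle and germinal center levels, and in Igha and Jchain, was not tested. The share of UMIs from mitochondrially encoded genes was 2.97% and 3.16% at day 0, and 3.21% and 3.41% at day 14. Of the eligible barcodes, 17 occurred in both libraries, and none of the chosen ones did (0 of 784).

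A chosen cell carried between 2 and 23 UMIs of the 6 genes, with a median of 4. The median score was 15.8 per 10000 UMIs. It was 0 in the remaining cells, 51.0% of which carried no such UMI. Both the lowest chosen cell and the highest remaining one scored 11.78 per 10000, and 333 cells lay within 10% of that value, so the cut crosses a crowded part of the range. At least 2 different genes of the 6 were detected in 333 of 361 chosen cells (92.2%) at day 0 and in 378 of 423 (89.4%) at day 14. At least 3 were detected in 52.4% and 51.5%. The cut already requires at least 2 UMIs of the 6 genes, so these shares are partly set by the rule. The shares that unrelated genes would give were not computed.

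The cells kept the transcripts that define B cells. Levels are given as CPM, a gene's UMIs scaled to a common total of UMIs that leaves out immunoglobulin and mitochondrially encoded genes. Cd79a, a signalling chain of the B cell receptor, stood at 2202 CPM in chosen and 2196 in remaining cells at day 0, and at 2293 and 2245 at day 14. Ms4a1, which encodes CD20, was at 880 against 750 CPM at day 0 and at 898 against 746 at day 14. Pax5, the B cell master regulator, was at 135 against 113 CPM at day 0 and at 121 against 113 at day 14. Cd79b, the partner chain of Cd79a, was the exception among these markers, at 669 against 806 CPM (ratio 0.83, 0.76 to 0.91) and 568 against 735 (0.77, 0.71 to 0.84).

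Markers of other cells that a sort could carry over were mostly low. All 9 natural killer and innate lymphoid cell markers were at 0 in the chosen cells on both days. Of 12 T cell markers 7 were at 0, Cd3e, Cd3g and Cd4 among them, and the summed level was 6.21 CPM against 11.6 in remaining cells at day 0 and 8.54 against 8.28 at day 14. Of 15 myeloid markers 7 were at 0, including Lyz2, Csf1r and Cd14, with sums of 235 against 243 CPM and 231 against 217, most of it from Cst3, which many cell types express. Epithelial markers summed to 12.4 against 16.9 CPM and 10.7 against 16.2. Stromal and endothelial markers summed to 75.8 against 59.3 CPM and 73.6 against 49.3, a ratio of 1.28 (0.96 to 1.68) and 1.49 (1.14 to 1.92), nearly all from Pecam1, which lymphocytes can also express. The median cell had 0 UMIs of each of these 5 lists, and the part of such RNA in the results was not tested.

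Among the 6 genes that chose the cells, values in the chosen cells are a description of the rule. Gpr183 stood at 434 CPM in chosen cells at day 0 and at 540 at day 14, against 70.7 and 66.3 in the remaining cells. Tnfaip3 stood at 239 and 169 CPM, against 38.7 and 29.8. Gpr183 supplied the largest share of the UMIs that chose the cells, 23.8% at day 0 and 29.5% at day 14, with Rasgef1b next at 22.5% and 23.7%. The smallest shares came from Icosl at day 0 (9.90%) and from Tnfaip3 at day 14 (9.20%). Between the days, Gpr183 in the chosen cells was 1.25-fold higher at day 14 (1.08 to 1.43) while the remaining cells were at 0.94-fold. Tnfaip3 was at 0.71-fold (0.57 to 0.88) in chosen and 0.77-fold in remaining cells.

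**Figure D1:**
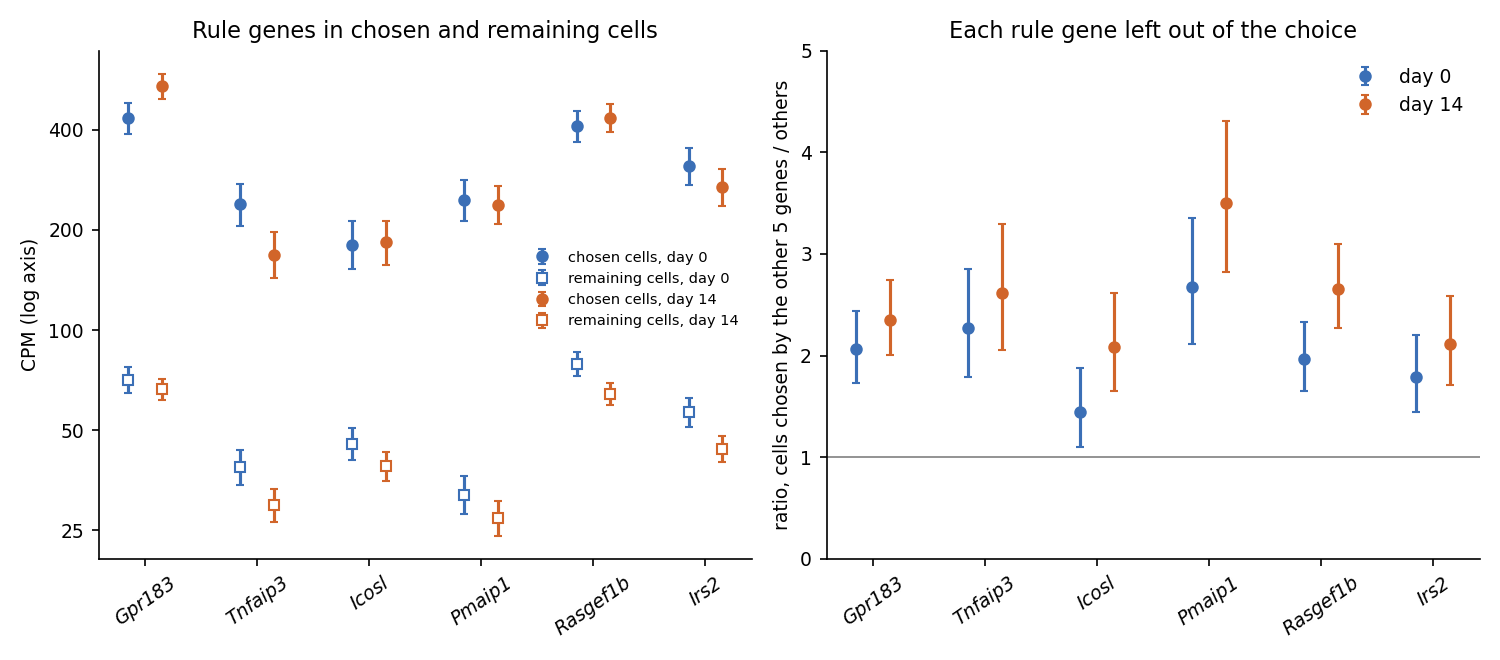
Left, CPM (log axis) of the 6 genes in chosen cells (filled circles) and remaining cells (open squares) by day; right, the ratio of each gene when cells were re-chosen by the other 5, over all other cells. Bars are 95% counting intervals; on the right all 12 ratios lie above 1, from 1.45 for Icosl at day 0 to 3.50 for Pmaip1 at day 14.

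Each of the 6 transcripts was left out in turn, the top 10% were chosen again by the other 5, and the left-out gene was read. All 6 were higher in cells chosen without them, on both days. The left-out Gpr183 was at 199 CPM in the cells so chosen and 96.6 in the others at day 0 (ratio 2.06, 1.73 to 2.44), and at 224 and 95.4 at day 14 (2.35, 2.01 to 2.74). Left-out Tnfaip3 was at 119 against 52.4 CPM (2.27, 1.79 to 2.85) and at 95.0 against 36.3 (2.61, 2.05 to 3.30). Pmaip1 had the highest ratio on each day, 2.67 (2.11 to 3.36) and 3.50 (2.83 to 4.31). Icosl had the lowest, 1.45 (1.10 to 1.88) and 2.09 (1.65 to 2.61), and its day 0 interval overlapped those of the other genes except Pmaip1. The median over the 6 genes was 2.01 at day 0 and 2.48 at day 14. The 6 genes were themselves picked with earlier results of these data known. These ratios therefore describe the cells and are not independent evidence that the genes occur together.

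Less of this was seen at day 0 in thinned cells: with every cell thinned to 1000 UMIs the day 0 median was 1.2, and Pmaip1 (0.97) and Irs2 (0.96) were no longer above 1, while the day 14 median was 2.17. Counting error in the thinned cells is wide, with an interval of 0.51 to 1.71 for Pmaip1 at day 0.

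Over all other genes the chosen cells resembled the remaining B cells, and a limited set stood higher. A gene was counted when at least 20 UMIs were expected for it in the chosen cells, and it was called when its ratio of chosen to remaining cells was at least 1.5-fold either way, a size and not a test. At day 0, 147 of 3955 genes were called higher (3.72%) and 134 lower (3.39%). At day 14, 206 of 4151 were higher (4.96%) and 177 lower (4.26%). With TMM factors, which scale on the bulk of genes, the split turned to more lower than higher: 121 higher and 175 lower at day 0, and 169 and 218 at day 14. Which direction holds more genes thus depends on the scaling. The median log2 ratio of all genes was 0.01 at day 0 and -0.01 at day 14. Of 3881 genes measured on both days, 75 (1.93%) were higher on both and 25 (0.644%) lower on both. Among these 3881 genes, the 75 are 54.3% of the 138 higher at day 0 and 39.5% of the 190 higher at day 14. The 25 are 19.4% of the 129 lower at day 0 and 17.9% of the 140 lower at day 14. At a minimum of 50 expected UMIs, 51 of 1882 genes were higher (2.71%) and 21 lower (1.12%) at day 0, 91 of 2073 higher (4.39%) and 34 lower (1.64%) at day 14, and 37 higher on both days. When the UMIs of each cell were split at random in 2, with cells chosen on one portion and genes read on the other, 41 were higher on both days.

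**Figure D2:**
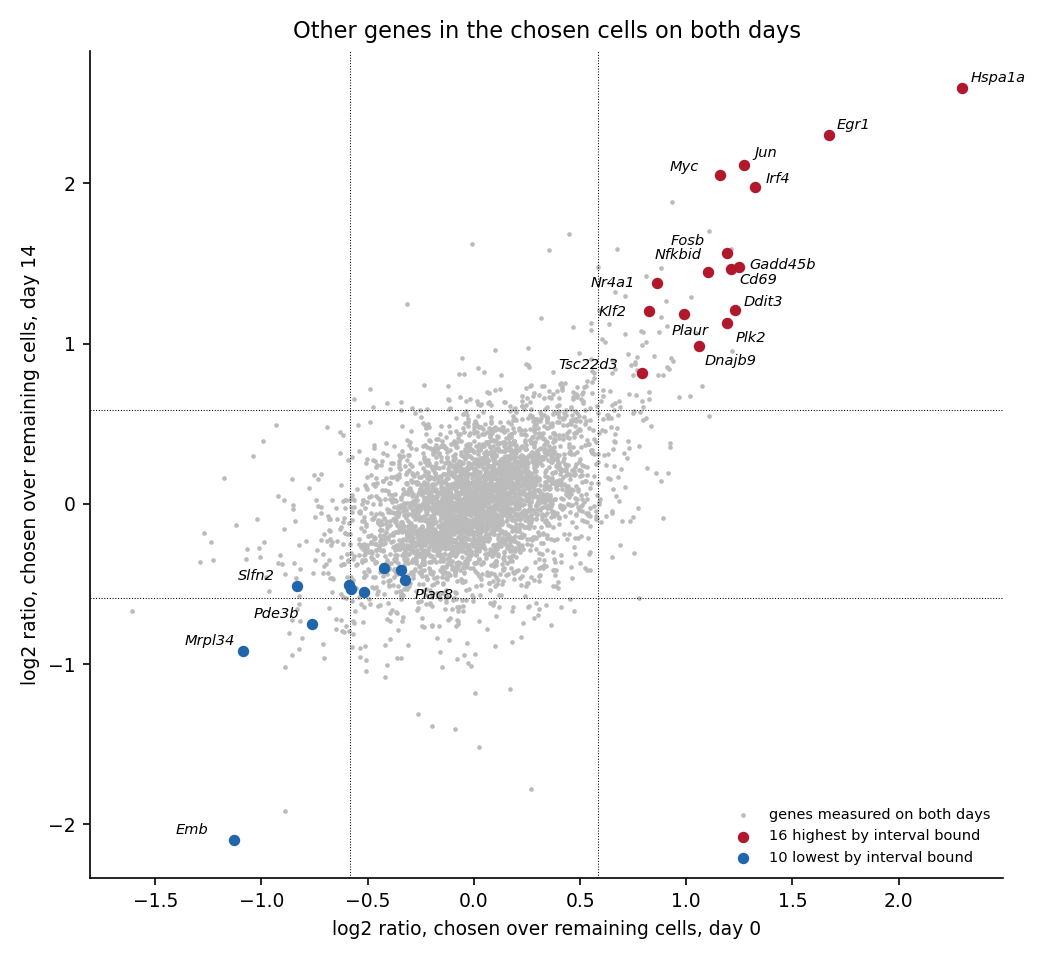
Each point is a gene measured on both days, with the log2 ratio of chosen over remaining cells at day 0 (x) and day 14 (y); dotted lines mark 1.5-fold. The genes of the 6-gene score are not drawn, and the 16 genes with the highest interval bound lie in the upper right corner, led by Hspa1a, Egr1, Jun, Myc and Irf4.

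Immediate early genes, the first transcripts that a cell makes after a receptor or stress signal, were the group with the most members higher. Of 26 measured, 14 were called higher and 0 lower at day 0 (3.72% and 3.39% of all genes), and 19 higher and 1 lower (Fosl2) at day 14 (4.96% and 4.26%), with median log2 ratios of 0.69 and 1.01. Of 25 measured on both days, 14 were higher on both, against the 1.93% of all genes. Egr1, a zinc-finger transcription factor downstream of ERK signalling, was at 112 CPM in chosen and 35.2 in remaining cells at day 0 (3.18-fold, 2.47 to 4.06), and at 177 and 35.9 at day 14 (4.93-fold, 4.08 to 5.94). Jun, a subunit of the transcription factor AP-1, was at 231 against 95.6 CPM (2.42-fold, 2.05 to 2.85) and 403 against 93.3 (4.32-fold, 3.83 to 4.87). The remaining cells were thus at nearly the same level on both days for these 2 genes, and the chosen cells were higher at day 14. Most chosen cells had no UMI of Egr1, and most had none of Jun. Egr1 was detected in 9.42% of chosen cells at day 0 and 15.6% at day 14 (4.84% and 4.14% of remaining cells). Jun was detected in 25.8% and 28.1% (15.6% and 13.8% of remaining cells), with up to 30 UMIs in 1 chosen cell at day 14.

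Other immediate early genes were also higher. Gadd45b, a stress sensor that acts on the p38 and JNK pathways, was at 194 against 81.6 CPM at day 0 (2.38-fold) and 260 against 93.4 at day 14 (2.79-fold). The AP-1 subunits Fosb (2.28- and 2.96-fold) and Fos (1.75- and 2.68-fold) were also higher on both days, as were Nr4a1, an orphan nuclear receptor induced by the B cell receptor (1.82- and 2.61-fold), and Myc, the regulator of growth (2.23- and 4.15-fold). Zfp36, which encodes an mRNA-destabilizing protein, stood at 1.84- and 2.24-fold, and Dusp1, a phosphatase of MAP kinases, at 1.60- and 3.02-fold. The most abundant member, the antiproliferative Btg1, was at 2989 against 2232 CPM and 3098 against 2139 (1.34- and 1.45-fold), below the size called.

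A second set of these transcripts can mark cells in an activated state, so the top 10% of eligible cells by Egr1, Egr2, Egr3, Nr4a1, Myc and Nfkbid were counted in each set. They held 20.5% of chosen and 9.09% of remaining cells at day 0, and 29.3% and 7.78% at day 14. Most chosen cells were therefore outside that group. Those cells were then left out and the top 10% chosen again among the rest, 345 cells at day 0 and 360 at day 14. The left-out medians of the 6 genes were then 1.75 and 2.37. In this setting 42 genes were called higher on both days, against 75 with all cells. Cd69 (2.17- and 2.11-fold), Irf4 (2.63- and 2.97-fold), Jun (2.37- and 2.99-fold) and Tsc22d3 (1.78- and 1.82-fold) were still higher. Of the genes used to remove those cells, Nfkbid was at 0.99-fold and Egr1 at 1.05-fold at day 0. At day 14 Nfkbid was at 1.196-fold and Egr1 at 2.05-fold, the latter with an interval of 0.935 to 4.04. The part of the removal itself in these values was not tested.

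NF-kB genes were higher as a limited subset. Of 20 measured subunits, feedback inhibitors and targets, 4 were higher at day 0 (3.72% of all genes) and 6 at day 14 (4.96% of all genes), with 0 lower on either day and median log2 ratios of 0.25 and 0.31. The 4 that were higher on both days are Nfkbid, Nfkbia, Traf1 and Cd83. Nfkbid, an atypical nuclear IkB protein with a pair of kappa-B matches in the promoter sequence, was at 220 CPM against 102 at day 0 (2.15-fold, 1.81 to 2.54) and at 263 against 96.2 at day 14 (2.73-fold, 2.36 to 3.14). Nfkbia, which encodes the inhibitor IkB-alpha, was at 400 against 266 CPM (1.51-fold, 1.33 to 1.70) and 648 against 280 (2.31-fold, 2.12 to 2.53), and its day 0 ratio was 1.45 with TMM factors, under the size called. Traf1, an adaptor of TNF receptors, was 1.82- and 1.75-fold higher.

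The subunits themselves differed less. Rel, which encodes the c-Rel subunit, was at 1285 against 959 CPM (1.34-fold) and 1286 against 915 (1.41-fold). Nfkb1 stood at 1.16- and 1.12-fold, Nfkb2 at 1.04- and 1.15-fold, Rela at 0.91- and 1.2-fold and Relb at 0.98- and 1.03-fold, none of them called. Icam1, an adhesion ligand and NF-kB target, was at 38.5 against 28.2 CPM at day 0 (1.36-fold, 0.90 to 2.00) and at 96.1 against 29.9 at day 14 (3.22-fold, 2.52 to 4.08).

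Receptors that position B cells, the family to which Gpr183 belongs by function, were mixed. Of 24 measured at day 0, 4 were higher and 1 lower (3.72% and 3.39% of all genes), and of 23 at day 14, 7 were higher and 1 lower (4.96% and 4.26%), with median log2 ratios of 0.26 and 0.29. With TMM factors 2 were higher and 2 lower at day 0. Cd69, a lectin that removes the exit receptor S1PR1 from the surface and keeps lymphocytes in tissue, was at 369 against 159 CPM at day 0 (2.32-fold, 2.03 to 2.63) and 405 against 147 at day 14 (2.76-fold, 2.46 to 3.09). Cxcr4, the receptor of CXCL12, was at 210 against 112 CPM (1.88-fold) and 152 against 83.8 (1.81-fold). Rgs1, which dampens chemokine receptor signals, was at 1.5-fold at day 0 (1.24 to 1.80) and 2.79-fold at day 14 (2.22 to 3.48). Ccr7, the receptor for T zone chemokines, was at 1214 against 918 CPM and 1013 against 696 (1.32- and 1.45-fold).

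S1pr1 itself stood at 1.17- and 1.38-fold. S1pr4, another sphingosine-1-phosphate receptor, was lower, at 60.9 against 89.7 CPM (0.68-fold, 0.50 to 0.91) and 47.0 against 74.6 (0.63-fold, 0.45 to 0.85). Of the 4 enzymes that make or degrade the oxysterol ligands of the Gpr183 receptor, Ch25h, Cyp7b1 and Hsd3b7 had 0 UMIs in the chosen cells on both days, and Cyp27a1 had 6.21 CPM at day 0 and 1.07 at day 14. Those levels are 5 UMIs and 1 UMI. The 4 genes together were also very low in the remaining cells, at 3.39 and 2.41 CPM.

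Costimulatory genes were higher for Cd83 and Cd40. Cd83, which stabilizes MHC class II and CD86 on the surface, was at 1823 against 1057 CPM at day 0 (1.72-fold, 1.63 to 1.82) and at 1606 against 760 at day 14 (2.11-fold, 2.00 to 2.23). Cd40, the receptor for T cell help, was at 80.8 against 51.8 CPM (1.56-fold) and 55.5 against 34.1 (1.63-fold). Of the 10 measured genes of this list 3 were higher on each day (3.72% and 4.96% of all genes) and 0 lower. Cd274, which encodes PD-L1, was 1.07-fold at day 0 (0.76 to 1.47) and 1.95-fold at day 14 (1.55 to 2.42). Cd86 was at 0.87- and 1.16-fold.

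All 10 MHC class II genes lay above 1 on both days, against 33.3% of all genes, but by small amounts, with median log2 ratios of 0.09 and 0.11, and with TMM factors 7 of 10 did at day 0 and 10 of 10 at day 14. Ciita, the transcriptional coactivator of the whole locus, was the 1 member called on both days, at 142 against 83.2 CPM (1.70-fold, 1.38 to 2.08) and 98.2 against 52.1 (1.88-fold, 1.49 to 2.35). H2-DMb1, part of the peptide-exchange factor DM, was at 1.47- and 1.62-fold. Cd74, the invariant chain, was at 1.08- and 1.11-fold. Among 9 genes of B-1, marginal zone and memory B cells the median log2 ratio was -0.04 at day 0 and -0.11 at day 14. Among 29 B cell receptor and identity genes, only Fcer2a (CD23, the low-affinity IgE receptor of follicular B cells) was called on both days, at 450 against 295 CPM (1.52-fold) and 279 against 175 (1.59-fold). That count is near the 1.93% of all genes, and with TMM factors 0 of the 29 were called at day 0. At day 14, 5 of the 29 were higher and 0 lower (4.96% and 4.26% of all genes), and 4 were higher with TMM factors.

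For the pathways of 3 other genes that chose the cells, the counts of members called were near the shares of all genes called higher, 3.72% at day 0 and 4.96% at day 14. Above 1 on both days were 11 of 18 FOXO and PI3K genes (61.1%) and 7 of 9 Ras and ERK genes (77.8%), against 33.3% of all genes. For BCL2 family and p53 genes 4 of 9 (44.4%) were above 1 and 3 of 9 (33.3%) below 1, against 33.2% of all genes below. With TMM factors, 15 of 18 FOXO and PI3K genes lay above 1 at day 0 and 10 of 19 at day 14. For Ras and ERK genes these were 8 of 9 and 7 of 10, and for BCL2 family and p53 genes 5 of 9 and 4 of 9. For Irs2, of 18 FOXO target and PI3K pathway genes at day 0 and 19 at day 14, 1 was higher on each day and 1 lower at day 14 (the kinase gene Akt1, 0.52-fold). The higher one was Klf2, a transcription factor of resting lymphocytes, at 1469 against 830 CPM (1.77-fold, 1.66 to 1.88) and 1369 against 596 (2.30-fold, 2.16 to 2.44). The list's median log2 ratio was 0.30 at day 0 and 0.08 at day 14. For Rasgef1b, 0 of 9 and 0 of 10 Ras and ERK pathway genes were higher, and 1 was lower at day 14 (Hras, 0.53-fold). The median log2 ratio of that list was 0.12 at day 0 and 0.13 at day 14. For Pmaip1, 0 of 9 measured BCL2 family and p53 target genes were higher at day 0 and 1 of 9 at day 14, the survival gene Bcl2a1b, at 214 against 155 CPM (1.38-fold) and 285 against 133 (2.15-fold). Bcl2a1b has near-identical paralogs, so reads could be split among them, and without the cells high in early activation genes it was at 0.995-fold at day 14. Trp53 itself stood at 0.86- and 0.81-fold.

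Tsc22d3, which encodes the glucocorticoid-induced protein GILZ, was among the most abundant genes called, at 2085 against 1206 CPM at day 0 (1.73-fold, 1.64 to 1.82) and 1527 against 866 at day 14 (1.76-fold, 1.67 to 1.86). With it, Per1 (1.70- and 1.60-fold) and Cxcr4 made 3 of 4 measured glucocorticoid response genes higher on each day, against 3.72% and 4.96% of all genes. Of 8 cAMP response genes, Gem, a small GTPase (1.84- and 2.77-fold), and Per1 were higher on both days, against 1.93% of all genes. The most abundant of that list, Crem, was at 1.30- and 1.10-fold.

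Irf4, a transcription factor of activated B cells and plasma cells, was at 82.0 against 32.8 CPM at day 0 (2.50-fold, 1.88 to 3.30) and at 102 against 26.0 at day 14 (3.94-fold, 3.09 to 4.99). Irf4 is itself on the plasma cell list, of which 1 of 7 measured genes was higher at day 0 (3.72% of all genes) and 2 of 7 at day 14 (4.96% of all genes), the other being the surface receptor gene Slamf7, at 1.40- and 1.59-fold (1.13 to 2.18 at day 14). Mzb1, a chaperone of antibody assembly, was at 329 against 448 CPM (0.74-fold, 0.65 to 0.83) and 356 against 410 (0.87-fold, 0.78 to 0.97). Creld2, a chaperone of the secretory pathway, was at 0.54-fold (0.28 to 0.94) and 0.26-fold (0.11 to 0.53). Over the 7 measured plasma cell genes the median log2 ratio was -0.23 and -0.20. Further genes with the highest bounds were Ddit3, the stress transcription factor CHOP (2.34- and 2.31-fold), Plk2, a polo-like kinase (2.29- and 2.19-fold), Plaur, the urokinase receptor (1.98- and 2.27-fold), and Dnajb9, a chaperone of the endoplasmic reticulum (2.08- and 1.98-fold).

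**Figure D3:**
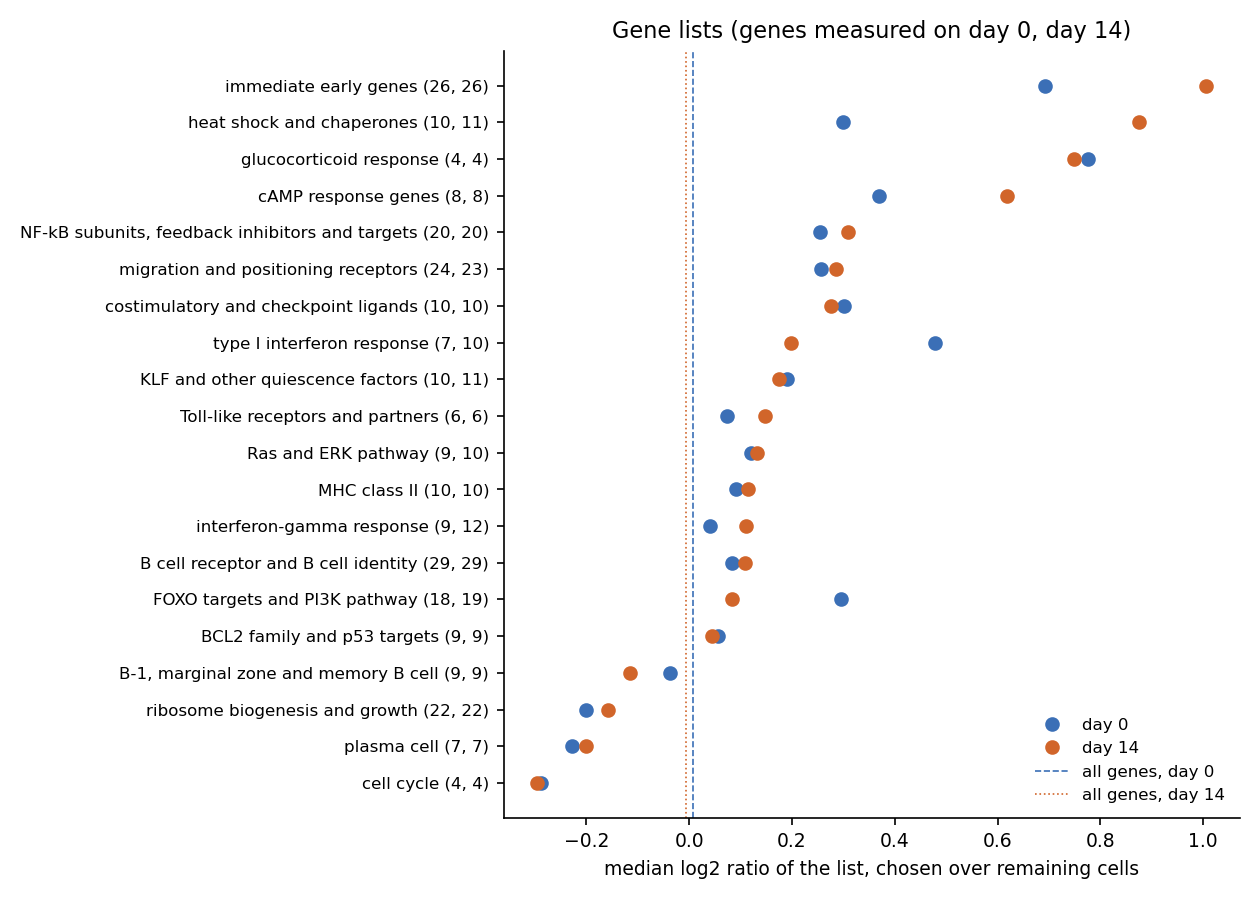
Median log2 ratio of chosen over remaining cells for gene lists with at least 4 genes measured on each day (numbers measured in brackets), with dashed and dotted lines at the median of all genes. Immediate early genes have the highest median at day 14 (1.01) and cell cycle genes the lowest (-0.30).

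Heat shock genes were higher mainly at day 14, where 7 of 11 measured were called (4.96% of all genes) against 3 of 10 at day 0 (3.72% of all genes), and 0 were lower. The median log2 ratio was 0.30 at day 0 and 0.88 at day 14. Hspa1a, an inducible HSP70 chaperone, had the highest ratio of the 16 genes with the highest bounds, at 285 against 57.9 CPM (4.92-fold, 4.16 to 5.79) and 495 against 82.1 (6.04-fold, 5.38 to 6.76). Its UMIs came from few cells: 24 of 361 chosen cells at day 0, with up to 58 UMIs in 1 cell, and 55 of 423 at day 14. At day 0 it was at 507 CPM in the top 5% of the score but at 70.7 in cells ranked from 5 to 10%. The latter is below the 103 CPM of cells ranked from 10 to 20%, just under the cut. At day 14 these levels were 621, 375 and 258 CPM. The copies Hspa1a and Hspa1b are nearly identical, so reads could be split between them.

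The cochaperones Dnajb1 (1.91- and 3.68-fold) and Dnaja1 (1.58- and 2.50-fold) were higher on both days. Hsph1 was at 1.28-fold at day 0 and 3.0-fold at day 14, and the most abundant member, Hsp90ab1, at 0.99- and 1.05-fold. The top 10% of eligible cells by Hspa1a, Hspa1b, Dnajb1 and Hsph1 held 15.0% of chosen and 10.2% of remaining cells at day 0, and 22.9% and 8.16% at day 14. Those cells were likewise left out and the top 10% chosen again among the rest, 342 cells at day 0 and 363 at day 14. Jun was then 1.97-fold higher at day 0 and 1.63-fold at day 14, Klf2 1.68- and 1.53-fold, and Cd69 2.22- and 2.73-fold. The part of a stress response in the ratios of other genes was not tested.

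The embigin gene Emb, an immunoglobulin-family adhesion protein, was at 16.2 CPM against 35.3 at day 0 (0.46-fold, 0.24 to 0.80) and 6.4 against 27.5 at day 14 (0.23-fold, 0.085 to 0.51). Slfn2, a factor of lymphocyte quiescence, was at 70.8 against 126 CPM (0.56-fold, 0.42 to 0.73) and 109 against 155 (0.70-fold, 0.57 to 0.86). Pde3b, a phosphodiesterase that degrades cAMP, stood at 0.59-fold on each day, and Mrpl34, a mitochondrial ribosomal protein, at 0.47- and 0.53-fold. The RNA-binding protein gene Ybx1 was at 649 against 823 CPM and 623 against 830 (0.79- and 0.75-fold). The other 4 genes with the lowest bounds, Zfp706, Ndufb5, Erh and Atp5g2, lay between 0.67- and 0.76-fold. Plac8, abundant in marginal zone and B-1 cells, was at 871 against 1092 CPM (0.80-fold, 0.74 to 0.86) and 902 against 1254 (0.72-fold, 0.67 to 0.77).

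Growth genes were lower as a group by small amounts. Of 22 ribosome biogenesis genes 2 were called lower on each day (3.39% and 4.26% of all genes) and 0 higher, with median log2 ratios of -0.20 and -0.16, and 15 of 22 (68.2%) were below 1 on both days, against 33.2% of all genes. Npm1, a nucleolar chaperone, was at 772 against 957 CPM (0.81-fold, 0.74 to 0.88) and 776 against 1054 (0.74-fold, 0.68 to 0.79). Srm, spermidine synthase and a Myc target, was at 0.64- and 0.58-fold, while Myc itself was higher. The share of UMIs from ribosomal protein genes was 32.7% in chosen and 34.9% in remaining cells at day 0, and 34.8% and 38.0% at day 14. Cell cycle genes summed to 640 against 853 CPM and 557 against 687, and Mki67, Cdk1 and Ccna2 were at 0 in the chosen cells on both days.

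Igha, the IgA heavy chain gene, was at 176 against 411 CPM at day 0 (0.43-fold, 0.36 to 0.51) and 52.3 against 272 at day 14 (0.19-fold, 0.14 to 0.26). Jchain, which joins IgA and IgM polymers, was at 53.4 against 168 CPM (0.32-fold) and 12.8 against 99.8 (0.13-fold). Eligibility already capped the immunoglobulin share, the median cell of each set had 0 UMIs of either gene, and the part of free RNA from plasma cells was not tested. Ighm, the IgM heavy chain gene, was at 1.11-fold on each day, and the lambda light chain gene Iglc2 at 1.42-fold (1.33 to 1.52) and 1.47-fold (1.37 to 1.58). Other lambda genes differed from Iglc2. Iglc1 was at 0.99-fold (0.86 to 1.14) and 0.77-fold (0.64 to 0.91), and Iglc3 at 1.14- and 1.105-fold.

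Of 3 germinal center genes measured at day 0, 2 were lower (3.39% of all genes), and of 1 at day 14, 0 were (4.26%). Neil1, a DNA glycosylase and the 1 gene measured on both days, was at 0.93-fold (0.67 to 1.27) and 0.95-fold (0.67 to 1.30). All markers of the list summed to 93.2 against 182 CPM at day 0 (0.51-fold, 0.40 to 0.65) and 74.7 against 98.0 at day 14 (0.76-fold, 0.59 to 0.97). Rgs13, a regulator of G protein signalling in germinal center cells, was at 0.37-fold (0.16 to 0.74) at day 0.

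Across the score, levels differed by degrees for some genes, and for others more sharply at the cut on a single day. Egr1 at day 14 was at 17.0 CPM in cells with no UMI of the 6 genes, 44.3 in the other cells below the top 20%, 101 in cells ranked from 10 to 20%, 146 from 5 to 10% and 210 in the top 5%. Irf4 was at 21.1, 38.4, 54.6, 75.6 and 88.7 CPM in the same order at day 0, and at 17.2, 33.0, 43.4, 93.8 and 112 at day 14. Klf2 was at 756, 835, 1079, 1255 and 1691 CPM at day 0, and at 553, 572, 919, 1369 and 1370 at day 14. At day 14 the intervals of Irf4 and Klf2 just below the cut (31.4 to 58.4 and 860 to 981 CPM) did not overlap those just above it (68.4 to 126 and 1266 to 1478). The same intervals overlapped at day 0, for Irf4 (40.1 to 72.6 and 51.35 to 107 CPM) and for Klf2 (1011 to 1151 and 1149 to 1369). Ddit3 at day 0 was at 81.3 CPM just below the cut and 151 just above it. At day 14 it was at 81.7 and 95.9, with overlapping intervals. Emb at day 14 was at 28.2 and 6.25 CPM, the latter from 3 UMIs, but at 17.4 and 19.5 at day 0. Cd79a stayed between 2119 and 2342 CPM over those ranges at day 0.

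**Figure D4:**
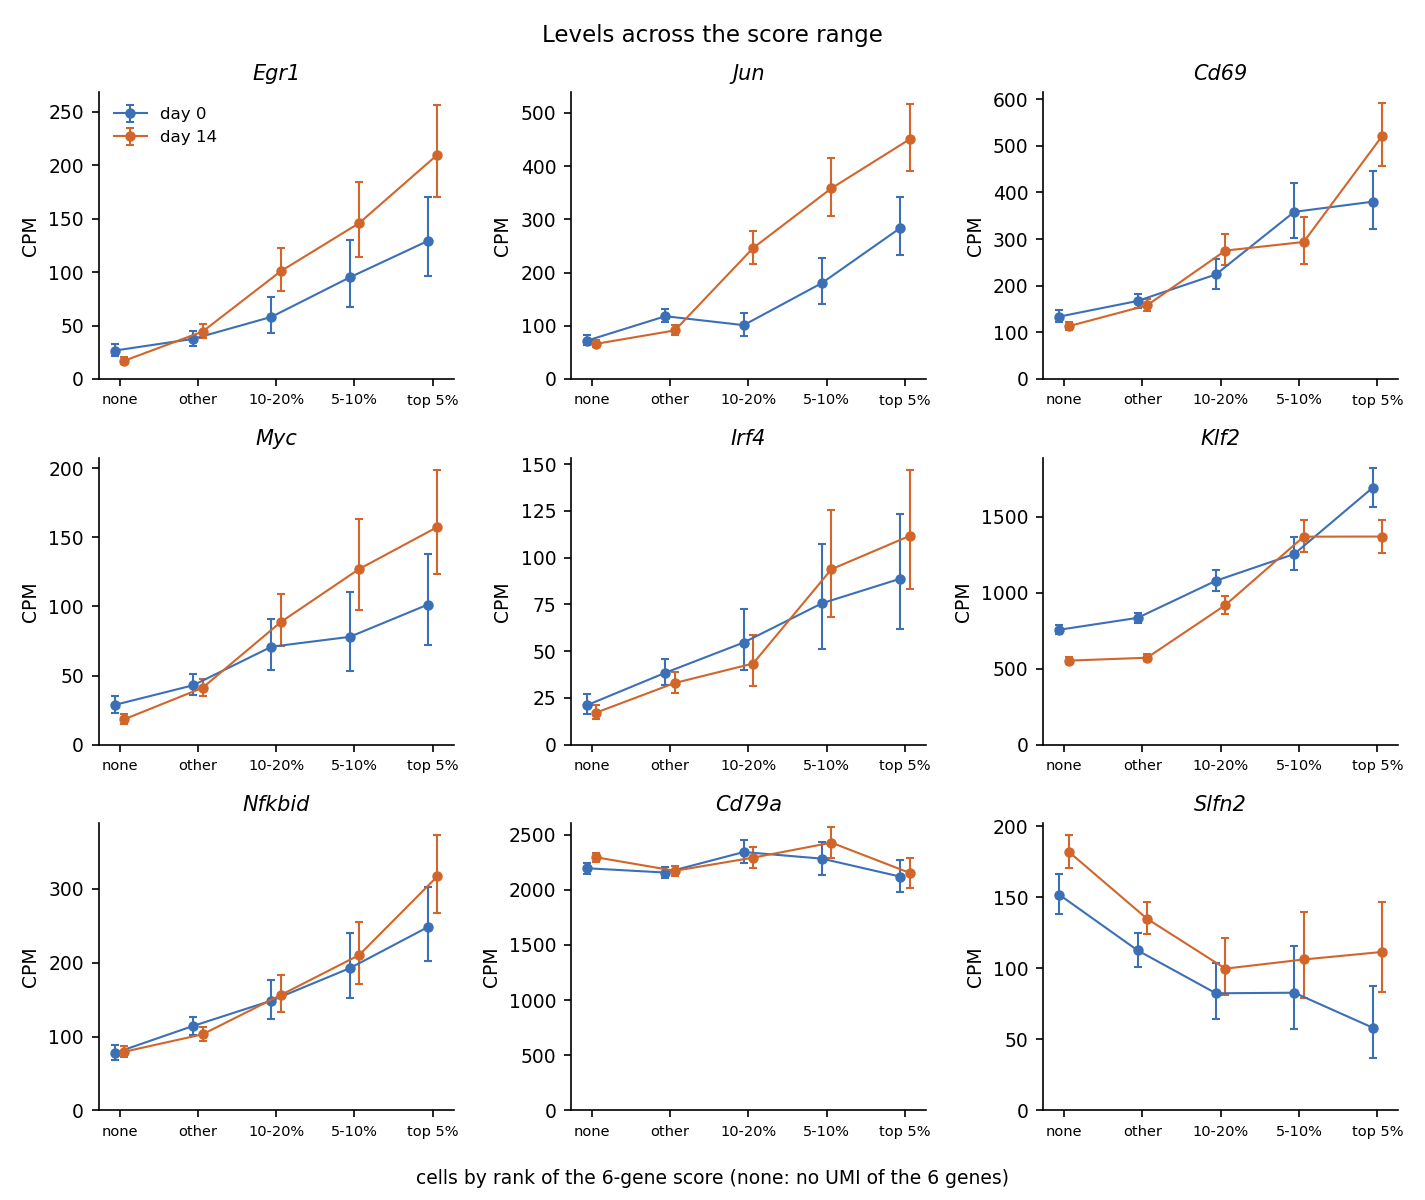
CPM with 95% counting intervals for 9 genes over 5 ranges of the 6-gene score, from cells with none of its UMIs to the top 5%, by day. Egr1, Jun, Cd69, Myc, Irf4, Klf2 and Nfkbid are at their highest or joint highest level in the top 5%, Slfn2 is highest in cells with none, and Cd79a varies little.

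Between the days, the chosen cells showed 121 of 3904 measured genes at least 1.5-fold higher at day 14 (3.1%) and 274 lower (7.02%). With TMM factors the split was near even, at 170 higher and 190 lower. The remaining cells, read over the same genes, had 14 higher and 65 lower, with more UMIs behind each gene and so less counting error. The medians of all genes were -0.06 in chosen and -0.07 in remaining cells on the log2 scale.

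Interferon-gamma response genes were higher at day 14 in both sets. Of 10 measured in the chosen cells, 6 were higher and 0 lower (3.1% and 7.02% of all genes), with a median log2 ratio of 0.65 against 0.54 in the remaining cells. Serpina3g, a serine protease inhibitor, went from 14.9 to 80.0 CPM in the chosen cells (5.37-fold, 2.90 to 10.9) and was at 5.22-fold in the remaining cells. Of 7 type I interferon response genes at day 0 and 10 at day 14, 2 were higher in chosen than in remaining cells on each day (3.72% and 4.96% of all genes) and 0 lower. The chosen and remaining cells differed little from each other in interferon-gamma response genes, where the median log2 ratio between them was 0.04 at day 0 (-0.01 with TMM factors) and 0.11 at day 14.

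Other genes were higher at day 14 in the chosen cells and near 1 in the remaining ones. Icam1 went from 38.5 to 96.1 CPM (2.49-fold, 1.64 to 3.88; remaining cells 1.06-fold). Hes1, a transcriptional repressor downstream of Notch, went from 101 to 193 CPM (1.92-fold, 1.47 to 2.53; remaining 1.06-fold), and its ratio of chosen to remaining cells moved from 0.97 to 1.75. Hspa1b was 2.94-fold higher (1.74 to 5.19; remaining 1.08-fold) and Hspa1a 1.74-fold (1.48 to 2.05; remaining 1.42-fold). Both are among the genes that define the heat shock high cells, and without those cells Hspa1b was at 0.95-fold with an interval of 0.069 to 13.1. Without the cells high in early activation genes Hspa1a was at 0.73-fold. For Jun and Nfkbia the ratio of chosen to remaining cells at day 14 was 1.79 times (1.46 to 2.19) and 1.54 times (1.33 to 1.78) that at day 0. Without cells high in heat shock genes this was 0.83 times (0.62 to 1.11) for Jun and 1.59 times (1.35 to 1.88) for Nfkbia. Without cells high in early activation genes it was 1.27 (0.99 to 1.62) and 1.13 (0.93 to 1.38). For Icam1 the same measure was 2.36 (1.51 to 3.68) with all cells. It was 1.61 (0.85 to 3.07) without cells high in early activation genes and 2.61 (1.54 to 4.435) without those high in heat shock genes. For Hes1 it was 1.81 (1.37 to 2.39), then 1.76 (1.31 to 2.37) and 2.32 (1.71 to 3.145). With UMIs split at random in 2 it was 2.86 (1.48 to 5.53) for Icam1 and 1.33 (0.88 to 1.99) for Hes1.

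Lower in the chosen cells at day 14 were Apoe, the lipid carrier, which went from 951 to 478 CPM (0.50-fold, 0.45 to 0.57; remaining 0.61-fold), the galectin gene Lgals1 (48.5 to 16 CPM, 0.33-fold), S100a6, a calcium-binding protein (60.9 to 19.2, 0.32-fold), the adaptor Grap2 (58.4 to 18.1, 0.31-fold) and Arhgef3, a guanine nucleotide exchange factor (57.2 to 20.3, 0.35-fold). The noncoding transcript AY036118 went from 77.0 to 17.1 CPM (0.22-fold, 0.12 to 0.39). The remaining cells were also lower for each of these 6 genes, between 0.44- and 0.66-fold. S100a6 is the least firm of them, since in the top 5% of the score it was at 1.47-fold (0.54 to 4.42).

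**Figure D5:**
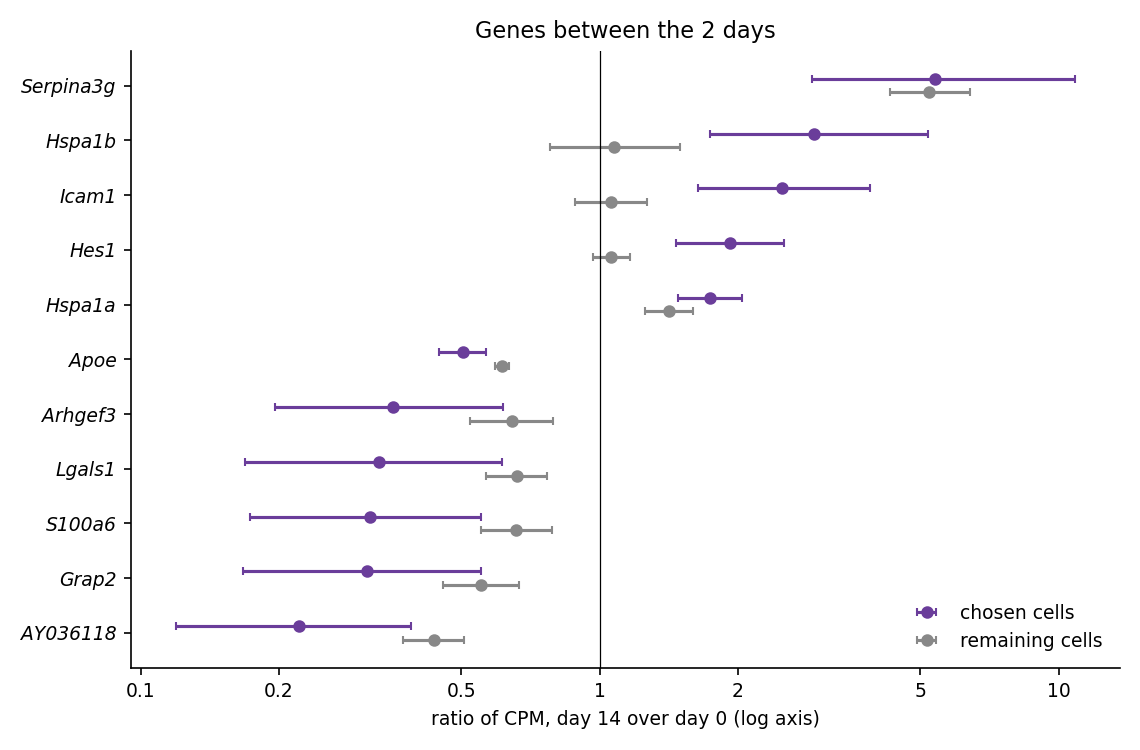
Ratio of CPM at day 14 over day 0 (log axis) with 95% counting intervals in chosen (purple) and remaining cells (grey) for 5 of the 6 genes with the highest interval bound in the chosen cells and the 6 with the lowest. Serpina3g is near 5 in both sets, while Icam1, Hes1 and Hspa1b are near 1 in the remaining cells.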

How the data were processed

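Raw UMI counts per gene and barcode were deposited by the authors, and per the file headers Cell Ranger 3.0.1 made them; the genome is mm10 per the submitters' processing notes. The deposited tables of natural log values, ln(1 + UMIs × 10000 / cell total), as checked on 300 genes each, served only to list the barcodes. The submitters' processing notes also list Seurat 3.0, and the sources used here give no further settings. Doublets were not called; cells over 2 times the median UMIs of their library were left out in an alternative, and they were fewer among chosen cells (1.94% against 4.49% at day 0, 1.18% against 6.99% at day 14).

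The 6 genes, the 29 gene lists and the alternatives were chosen with earlier results of these data known. UMIs were summed per library over chosen and remaining cells and divided by all UMIs after immunoglobulin and mitochondrially encoded genes were set aside. TMM and median-of-ratios factors were alternatives to this scaling. Where cells high in early activation genes, in heat shock genes or in UMI number were left out, the top 10% were chosen again among the rest. Ratios have exact conditional, sums exact Poisson and shares exact Clopper-Pearson 95% intervals (Python 3.11.15, NumPy 2.4.6, SciPy 1.17.1). The 6 genes, immunoglobulin and mitochondrial genes were not counted among genes called. A list was read through its measured members, those with 20 expected UMIs. Genes were named by rule: the 16 with the highest lower bound over both days and the 10 lowest by upper bound, chosen over remaining cells, the 6 highest and 6 lowest between days, leaving out ribosomal protein and predicted genes, and per list up to 3 with the largest ratio and the most abundant. Other genes named were chosen after their values were seen, and results of some genes that the rule names are not reported here. Positions come from GENCODE M21 and RefSeq promoters of GRCm38.p6, the build mm10. Ratios of chosen to remaining cells at day 0 and the choice by left-out genes were tested on simulated counts, drawn as independent Poisson values. Intervals were checked there on the cells made different, not on cells chosen by score. Ratios between days and the alternative scalings were not tested in this way.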

Additional observations from a re-analysis of the deposited data

Results flagged for a closer look

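Barcodes outside the eligible set were read with the same score. Among barcodes in the log-normalized table with under 1000 UMIs, 10 of 34 at day 0 (29.4%, exact binomial interval 15.1 to 47.5%) and 11 of 63 at day 14 (17.5%, 9.05 to 29.1%) reached the score of the lowest chosen cell. They were singled out because they are cells that no comparison used and because 29.4% and 17.5% exceed the 11.2% and 9.19% of eligible cells. Their median was 884 UMIs at day 0 and 848 at day 14, against 2258 and 2237 in the chosen cells. The score divides by all UMIs of a barcode, so at low depth fewer UMIs of the score genes are needed to reach the cut. The shares of these barcodes and of eligible cells are therefore not directly comparable, and the part of depth in them was not tested. None of the barcodes with 20% or more immunoglobulin UMIs reached the score of the lowest chosen cell (0 of 24 and 0 of 27).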

How the results depend on the processing

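With 1 library per day no replicate could be left out, and no paired analysis was possible because each day has 1 sample. The counts of genes past 1.5-fold moved most. With median-of-ratios factors, as with TMM factors, the split turned: 122 genes were higher and 175 lower at day 0, 170 and 215 at day 14, and 169 and 190 between days. In cells thinned to 1000 UMIs, 53 genes were higher and 53 lower at day 0, 81 and 85 at day 14, 23 higher on both days, and 66 higher and 130 lower at day 14 than at day 0 in the chosen cells. With UMIs split at random in 2, chosen on one portion and read on the other, 91 were higher at day 0, 118 higher and 90 lower at day 14, 41 higher on both days and 150 lower between days. A minimum of 5 expected UMIs gave 524 higher and 750 lower at day 0, 591 and 733 at day 14, 159 higher on both days, and 674 higher and 1037 lower between days. A minimum of 50 gave 51 and 21, 91 and 34, 37 higher on both days, and 28 and 63 between days. The top 20% had 205 genes lower at day 0, the top 5% 165 lower between days, and without cells high in early activation genes 42 were higher on both days. The left-out median at day 0 was 1.2 in thinned cells and 2.43 in the top 5%. The chosen share at day 0 was 9.99% when chosen within each library, 22.6% for the top 20% and 5.54% for the top 5%. At day 14 it was 7.37% thinned, 8.30% with at least 2 different genes of the score, 18.2% and 4.63%.

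Of the values of single genes under an alternative, 2965 lay within the counting interval of the reported value, 324 lay outside it and 11 crossed 1. In thinned cells these were left-out Irs2 (0.963) and Pmaip1 (0.972) at day 0 and Slamf7 at day 14 (0.987). Without cells high in early activation genes they were Nfkbid at day 0 (0.992), Bcl2a1b at day 14 (0.995) and Hspa1a between days (0.728). Without cells high in heat shock genes they were Hspa1a at day 0 (0.633) and Hspa1b between days (0.948). In the top 5% they were S100a6 at day 0 (0.446) and between days (1.47), and in the top 20% AY036118 at day 14 (1.01). The cause was not tested, also where the removed cells were picked by the same gene. Leaving out cells high in heat shock genes and requiring 2 different genes of the score were alternatives chosen after seeing the data.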
